A study of Mus musculus with 6 samples.

Results

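The constitutive proteasome was followed at the level of transcripts in ovaries without a functional FSH receptor gene (FSH, follicle-stimulating hormone). Its genes were taken by name: every probe set annotated with exactly 1 gene symbol made of Psma, Psmb, Psmc or Psmd and a number, without the inducible subunits Psmb8, Psmb9 and Psmb10. This gave 36 of the 18193 genes with such a probe set, 16 of the core particle (Psma and Psmb) and 20 of the cap (Psmc and Psmd). The brightest probe set over all 6 arrays stood for each gene. A filter on dim signals, set at a mean of 20.4, was passed by 35 of the 36, and 11199 genes in all were tested.

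Both groups were female mice of 8 months bred from heterozygous parents on the 129T2 svEmsJ background. The 3 wild-type (WT) samples carried the intact receptor, and the 3 FORKO samples (FSH receptor knock-out) had lost all variants of it. RNA came from whole ovaries, both ovaries pooled, with 1 Affymetrix Mouse Genome 430 2.0 array for each sample. Although the labels list biological replicates, the number of mice behind a sample is not stated, and a p-value here refers to the spread among the 6 samples.

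The proteasome is the protease that degrades ubiquitin-tagged proteins in the cytoplasm and nucleus of all cells. Its barrel-shaped 20S core is made of stacked rings of alpha and beta subunits, and the proteolytic sites lie inside on the beta subunits Psmb5, Psmb6 and Psmb7. The 19S cap binds ubiquitin chains, removes them and feeds the unfolded protein into the core with a ring of ATPases. In cells exposed to interferon-gamma, Psmb8, Psmb9 and Psmb10 are built into new cores in place of Psmb5, Psmb6 and Psmb7. In the ovary, timed proteasomal degradation is known for its part in oocyte meiosis.

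Signals below are MAS5 intensities after scaling all arrays to 1 trimmed mean, given as mean ± SD (n = 3 in each group) or array by array in the order of replicates 1, 2 and 3. A log2 change is the FORKO mean minus the WT mean of log2(signal + 5.73), an SE or interval that goes with it is limma's, and in an interval the unit is the same. A probe set's brightness depends on its probes, so signals are compared between arrays and not between genes. The deposited signals had trimmed means of 80.6 to 98.4. Fshr read 99.6, 59.4 and 119 in WT and 1.2, 11.2 and 11.7 in FORKO samples (log2 change -2.90, limma adjusted p = 0.0102, but 0.0526 without WT replicate 1 and 0.0598 without WT replicate 3), a check of the labels only if that probe set lies in the deleted part. FORKO replicate 1 stood apart: its log2 signals correlated at 0.954 and 0.955 with FORKO replicates 2 and 3, which correlated at 0.969 with each other. The summed signal of 12 granulosa markers was 14391 to 18947 in WT and 7677 in FORKO replicate 1. In FORKO replicates 2 and 3 it was 18008 and 18743. Inha, Inhba, Inhbb, Fst, Hsd17b1, Nr5a2, Esr2 and Fshr read below all WT arrays in FORKO replicate 1. Amhr2, Kitl and Foxl2 read above all WT arrays there, at 2840.5, 1494 and 849.5 (highest WT signals 1745, 804 and 809.8). The part of the granulosa markers in the results below was not tested. Of 15 oocyte markers, 10 passed the filter; 4 of these fell, and all 10 changes were negative (median -0.94). The granulosa marker Amh read 0.8 to 1.2 on all arrays. Of 9 surface epithelium markers 3 rose, and 1 of 5 measured theca markers, Fdx1, fell. With the replicate block a second theca marker, Star, passed (log2 change -0.87, limma adjusted p = 0.0418). The count of granulosa markers went from 1, Fshr itself, to 4. Those added changed in both directions: Amhr2 and Kitl were higher in FORKO (log2 change 0.66 for each) and Nr5a2 lower (-1.87). The count of cell division genes went from 0 to 1, Bub1 (-1.27). Over all genes tested, 2.14% passed without the block and 3.98% with it. Against the WT mean, the medians in FORKO replicates 1, 2 and 3 were -4.27, -0.42 and -0.51 for 3 luteal markers. The luteal markers did not move together: Sfrp4 read 893.9, 581.4 and 844.4 in WT and 28.9, 3521.4 and 3294.9 in FORKO samples. The other luteal markers, Akr1c18 and Ptgfr, read below all WT arrays on every FORKO array. For 11 cell division genes the medians in FORKO replicates 1, 2 and 3 were -1.61, -0.13 and -0.28. For the surface epithelium markers they were 1.53, 0.46 and 0.67. The part of these lists in the results was not tested either.

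None of the 35 measured proteasome genes passed limma's test between FORKO and WT ovaries at an adjusted p of 0.05. Over all genes tested, 2.14% passed in either direction, 1.30% upward and 0.839% downward; over probe sets the share was 1.65%. The lowest adjusted p among the members was 0.271, that of Psmb5. At an unadjusted p of 0.05 only Psmb5 passed, 1 of 35, where 16.8% of all genes did. With the replicate number as a block the count was again 0, where 3.98% of all genes passed (lowest adjusted p = 0.154), and with the variance model without an intensity trend it was 0 (lowest adjusted p = 0.394).

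The members' intervals were narrow. For 33 of 35 genes (94.3%) the 95% interval of the log2 change lay between -1 and 1, so that a 2-fold difference in either direction was outside it; over all genes tested this share was 78.5%. The exceptions were Psma8 and Psmd3. For 13 genes the interval lay between -0.5 and 0.5. Bright genes have narrower intervals in general: among the 1813 genes with mean signals in the middle range of the members, 370 to 1240, the share was 86.0%. Of the members 17 lie in that range, so this share and that of all 35 members cover unlike sets. Within the range the median size of the log2 change was 0.21 for members and 0.19 for all genes. The median within-group SD of log2 signals was 0.17 over the members and 0.25 over all genes tested. Within the range of 370 to 1240 it was 0.19 for members and 0.21 for all genes.

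**Figure D1:**
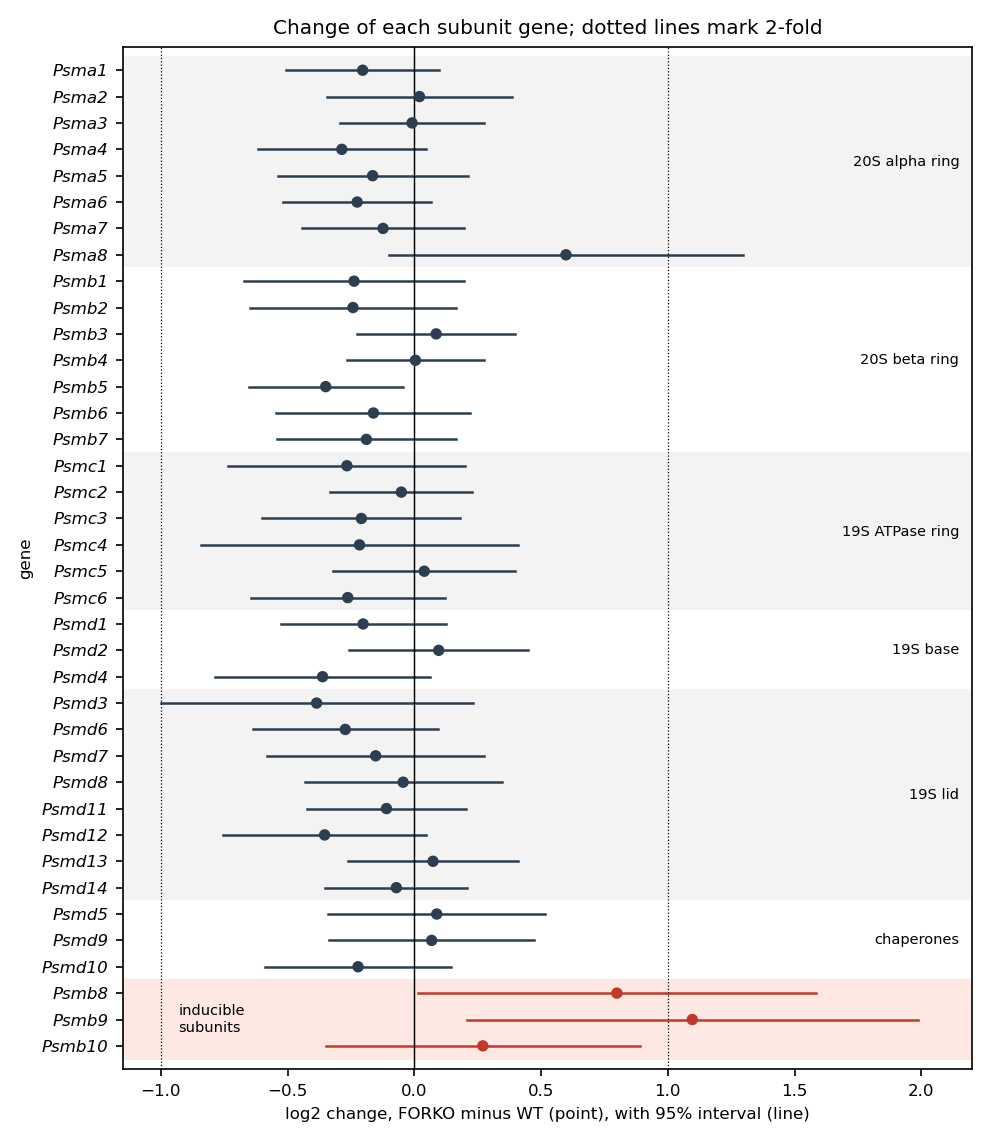
Log2 change (FORKO minus WT, horizontal axis) of the 35 proteasome genes past the filter and the 3 inducible subunits; points are changes from limma and lines their 95% intervals, with dotted lines at a 2-fold difference. Of the constitutive genes only the interval of Psmb5 lies wholly on 1 side of 0, and only those of Psma8 and Psmd3 reach past a dotted line.

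Small negative values prevailed. Of the 35 changes, 26 were negative and 9 positive, with a median of -0.16, whereas 52.6% of all 11199 genes had a negative change and their median was -0.02. By particle, 11 of 15 core genes (median -0.16) and 15 of 20 cap genes (median -0.18) were below 0. This count rests on the scaling of the arrays: scaled to the bacterial spikes, 17 members were negative and 18 positive, and the median of all genes moved to 0.14. Relative to the median of all genes, the members' median was -0.14 with the main scaling and between -0.15 and -0.12 with the other 4 scalings, but -0.09 both without FORKO replicate 1 and without WT replicate 3. When all probe sets of a gene were averaged, it was -0.07.

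The groups did not overlap for 6 members, all lower on the 3 FORKO arrays: Psma1, Psma4, Psma6, Psmb5, Psmd1 and Psmd10. Among all genes tested, 12.0% had FORKO arrays all below WT and 10.7% all above. The 6 are 17.1% of the members, and 22.6% of all genes had groups without overlap in either direction.

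**Figure D2:**
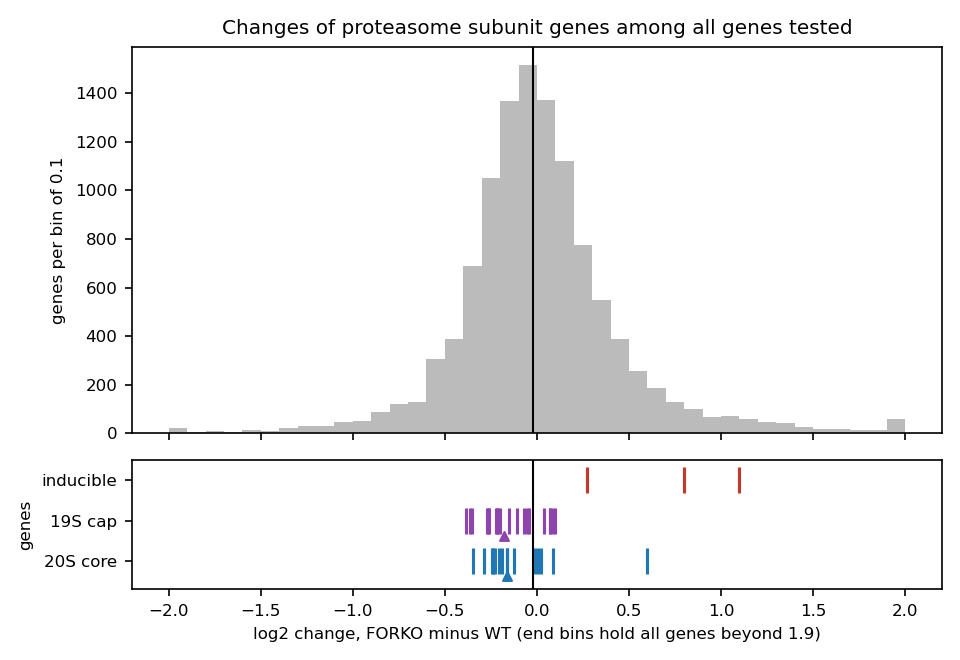
Upper panel, number of genes in bins of 0.1 of the log2 change (FORKO minus WT) over the 11199 genes tested, with their median as a vertical line; lower panel, each core, cap and inducible subunit gene as a tick, with triangles at the core and cap medians. The constitutive genes lie in the middle of the distribution, from -0.39 to 0.60, with medians left of that of all genes under this scaling (under spike scaling the core and cap medians are 0.0093 and -0.0060).

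The arrays did not contribute evenly. FORKO replicate 1 held the lowest signal for 17 of the 35 members, WT replicate 2 the highest for 13 and WT replicate 3 the highest for 10. Over all genes tested, FORKO replicate 1 was lowest for 25.9%, WT replicate 2 highest for 20.4% and WT replicate 3 highest for 16.6%. The median of the cap genes against the WT mean was -0.16 in FORKO replicate 1, -0.05 in replicate 2 and -0.08 in replicate 3; that of the core genes was -0.13, -0.18 and -0.10. Without FORKO replicate 1 the cap median was -0.07 and the core median -0.14, 25 of 35 members had a negative change, and 1 member, Psma8, passed where 4.80% of all genes did. Without WT replicate 3 the cap median was -0.09, and without WT replicate 2 it was -0.12.

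**Figure D3:**
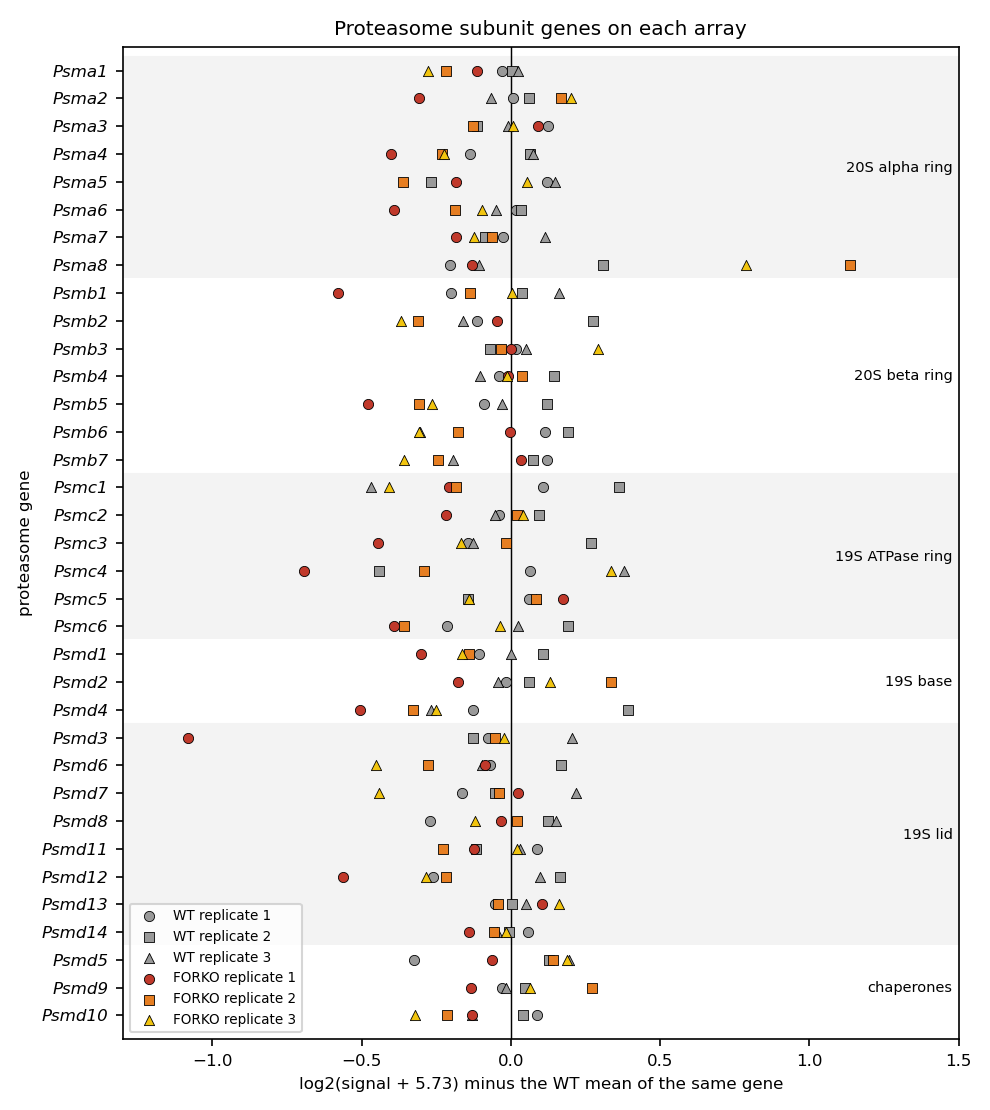
Log2(signal + 5.73) of each proteasome gene past the filter on each of the 6 arrays, minus that gene's WT mean; grey symbols are WT and coloured symbols FORKO arrays, with rows grouped by role. Most symbols lie within 0.5 of 0; Psmd3 in FORKO replicate 1 and Psma8 in FORKO replicates 2 and 3 lie farthest out.

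The alpha subunits form the outer rings of the core and gate the entry of substrates. Psma4 read 564, 649 and 655 in WT and 469, 528 and 531 in FORKO samples (log2 change -0.29 ± 0.15, SE, 95% interval -0.62 to 0.05, limma adjusted p = 0.419). The groups did not overlap, and FORKO replicate 1 was lowest. Psma1 read 849, 869 and 881 in WT and 799, 744 and 713 in FORKO samples (log2 change -0.20), and Psma6 read 2028, 2053 and 1935 in WT and 1526, 1762 and 1872 in FORKO samples (log2 change -0.23). Both again had no overlap, with differences that did not pass limma's test (adjusted p = 0.548 and 0.481). The signal of Psma5 was 1567 ± 242 in WT and 1395 ± 204 in FORKO, and that of Psma7 618 ± 45.6 and 566 ± 23.7. For Psma2 and Psma3 the changes were 0.02 and -0.01, with overlapping arrays; Psma2 was lowest in FORKO replicate 1 (1019) and highest in FORKO replicates 2 and 3 (1416 and 1451).

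Psma8, an alpha subunit known from male germ cells, where it takes the place of Psma7, had the largest positive change among the members. Psma8 read 49.7, 73.4 and 53.5 in WT and 52.6, 135 and 104 in FORKO samples (log2 change 0.60 ± 0.31, SE, 95% interval -0.10 to 1.30, limma adjusted p = 0.421). FORKO replicate 1 lay among the WT arrays, and the other FORKO arrays lay above all of them. Among the members past the filter, Psma8 had the lowest mean signal (58.9 in WT and 97.2 in FORKO). It did not pass the stricter dim filter of 90.4. Without FORKO replicate 1 its change was 0.96 and limma's adjusted p was 0.0334. For its somatic counterpart Psma7 the change was -0.12 with that array and -0.09 without it.

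The beta rings hold the proteolytic sites. Promoters are shown for Psmb5 and Psmb6, for Psmb8 and Psmb9, which replace them and differed most from them in these data, and for Psmb11, the member under the filter, as RefSeq gives them (GRCm38.p6, 250 bases before to 50 after the start of the gene, 5′ to 3′), with matches to 4 short motifs in capitals.
Psmb5 promoter, chr14:54617946-54618245, minus strand: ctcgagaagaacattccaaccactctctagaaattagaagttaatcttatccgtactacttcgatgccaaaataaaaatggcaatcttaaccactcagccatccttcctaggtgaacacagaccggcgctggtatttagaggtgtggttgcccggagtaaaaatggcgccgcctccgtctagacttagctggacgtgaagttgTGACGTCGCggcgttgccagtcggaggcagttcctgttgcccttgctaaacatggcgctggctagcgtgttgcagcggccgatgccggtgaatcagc
Psmb6 promoter, chr11:70525107-70525406, plus strand: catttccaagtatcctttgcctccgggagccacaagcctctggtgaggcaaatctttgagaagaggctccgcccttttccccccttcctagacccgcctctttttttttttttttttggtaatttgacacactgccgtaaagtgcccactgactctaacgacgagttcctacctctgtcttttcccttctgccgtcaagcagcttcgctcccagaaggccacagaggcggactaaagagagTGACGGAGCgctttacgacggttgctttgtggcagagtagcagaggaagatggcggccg
Psmb8 promoter, chr17:34197945-34198244, plus strand: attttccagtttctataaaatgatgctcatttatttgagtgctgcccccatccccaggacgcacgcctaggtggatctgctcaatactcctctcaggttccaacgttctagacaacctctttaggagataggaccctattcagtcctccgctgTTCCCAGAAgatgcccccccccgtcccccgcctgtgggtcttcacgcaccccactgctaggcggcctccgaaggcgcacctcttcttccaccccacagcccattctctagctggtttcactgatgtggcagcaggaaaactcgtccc
Psmb9 promoter, chr17:34187281-34187580, minus strand: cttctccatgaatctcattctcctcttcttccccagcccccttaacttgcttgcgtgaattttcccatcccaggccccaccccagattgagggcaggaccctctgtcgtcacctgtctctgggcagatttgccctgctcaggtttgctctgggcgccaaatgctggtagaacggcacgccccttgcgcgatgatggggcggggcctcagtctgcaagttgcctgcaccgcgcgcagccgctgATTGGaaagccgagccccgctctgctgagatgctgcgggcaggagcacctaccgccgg
Psmb11 promoter, chr14:54625060-54625359, plus strand: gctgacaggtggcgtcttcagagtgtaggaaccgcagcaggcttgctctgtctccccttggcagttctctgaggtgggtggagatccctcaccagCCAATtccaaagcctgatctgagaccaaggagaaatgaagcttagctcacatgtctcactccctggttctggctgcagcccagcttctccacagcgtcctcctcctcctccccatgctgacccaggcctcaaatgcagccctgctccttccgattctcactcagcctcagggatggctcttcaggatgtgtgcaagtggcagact
The motifs were TGACNNNGC, the core of the antioxidant response element bound by Nfe2l1 and Nfe2l2, the CCAAT box, TTCNNNGAA, which STAT factors bind, and, given by its name alone, the core of the interferon-stimulated response element; each was searched on both strands, and none is a part of another. Psmb5 holds TGACGTCGC, whose first base lies 47 bases before the start, and Psmb6 holds TGACGGAGC at 9 bases before it. In Psmb8 the capitals are TTCCCAGAA, 97 bases before the start, and in Psmb9 and Psmb11 a CCAAT box, 8 bases before the start and read as ATTGG in Psmb9, and 155 bases before it in Psmb11. These matches are descriptions of letters and not of bound sites.

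The promoters of 29 of the 36 members matched the table, in 31 windows. TGACNNNGC was found in 5 of these windows, those of Psmb5, Psmb6, Psmc6, Psmd9 and Psmd12, which is 16.1% against 12.4% of all 32851 windows in the table. CCAAT was present in 12 of the 31 member windows (38.7%) and in 37.4% of all. The interferon element core was found in 3 member windows (9.68%, against 3.44% of all) and TTCNNNGAA in 1 (3.23%, against 8.30%). What most member windows shared was a high number of CG dinucleotides: the median was 20 in 300 bases, against 7 over all windows, which include genes of every kind. At least 10 were counted in 93.5% of member windows and 43.5% of all; Psmb11 held 4.

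Psmb5 read 1384, 1601 and 1442 in WT and 1056, 1188 and 1226 in FORKO samples (log2 change -0.35 ± 0.14, SE, 95% interval -0.65 to -0.05, limma adjusted p = 0.271). This catalytic subunit, with chymotrypsin-like activity, had no overlap between groups and an interval below 0, but its adjusted p did not pass. Psmb6 read 1130, 1192 and 844 in WT and 1042, 923 and 843 in FORKO samples (log2 change -0.16 ± 0.17, SE, 95% interval -0.54 to 0.22, limma adjusted p = 0.734), and Psmb7 read 1365, 1322 and 1096 in WT and 1286, 1059 and 978 in FORKO samples (log2 change -0.19 ± 0.16, SE, 95% interval -0.54 to 0.17, limma adjusted p = 0.648). Psmb6 carries the caspase-like and Psmb7 the trypsin-like activity. In both the FORKO arrays overlapped WT, with FORKO replicate 3 lowest.

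Psmb1, Psmb2, Psmb3 and Psmb4 have no proteolytic site. Psmb2 read 313, 411 and 303 in WT and 328, 272 and 261 in FORKO samples (log2 change -0.24, 95% interval -0.65 to 0.16). Psmb1 read 433 ± 54.5 in WT and 370 ± 74.9 in FORKO, with FORKO replicate 1 lowest at 286 (log2 change -0.24); without that array its change was -0.07. The means of Psmb4 were 2785 ± 254 in WT and 2786 ± 52.9 in FORKO (95% interval -0.27 to 0.27). The change of Psmb3 was 0.09. Its dimmer probe set read 255, 253 and 291 in WT and 384, 371 and 403 in FORKO, without overlap, and gave 0.53 (unadjusted p = 0.00633, limma adjusted p = 0.137), the lowest adjusted p of any other probe set of a member. Psmb11, a catalytic beta subunit of thymic cortical epithelium, read 0.5 to 4.1 on the 6 arrays and was the only member under the filter.

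The inducible subunits stand outside the 36. Psmb9 read 180, 195 and 176 in WT and 885, 242 and 295 in FORKO samples (log2 change 1.10 ± 0.40, SE, 95% interval 0.21 to 1.99, limma adjusted p = 0.239), and Psmb8 read 229, 194 and 224 in WT and 739, 234 and 312 in FORKO samples (log2 change 0.80 ± 0.35, SE, 95% interval 0.01 to 1.58, limma adjusted p = 0.333). Both were higher on all FORKO than on all WT arrays, by far the most in FORKO replicate 1, and without that array the changes were 0.53 for Psmb9 and 0.32 for Psmb8. Psmb10 read 606, 481 and 482 in WT and 1029, 453 and 532 in FORKO samples (log2 change 0.27), high in FORKO replicate 1 alone and with a change of -0.08 without it. None of the 3 passed limma's test.

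The difference in response between each inducible subunit and the constitutive subunit it replaces was tested directly. The log2 signal of Psmb9 minus that of Psmb6 was higher in FORKO by 1.26 ± 0.52 (SE; n = 3 in each group), and that of Psmb8 minus Psmb5 by 1.15 ± 0.57. Each had a p of 0.1 in an exact permutation test (two-sided), a value that 3 against 3 arrays cannot go below, and 0.15 after Benjamini-Hochberg adjustment over the 3 pairs. Psmb10 minus Psmb7 differed by 0.46 ± 0.28 (exact permutation p = 0.3, adjusted 0.3). The SEs of the 3 pairs come from the pooled within-group variance of the per-array differences and are not limma's. Against the WT mean, Psmb9 minus Psmb6 stood at 2.24, 0.56 and 0.97 in FORKO replicates 1, 2 and 3, and Psmb8 minus Psmb5 at 2.23, 0.43 and 0.79. Without FORKO replicate 1 the differences were 0.77, 0.61 and 0.22 in the order Psmb9, Psmb8 and Psmb10.

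**Figure D4:**
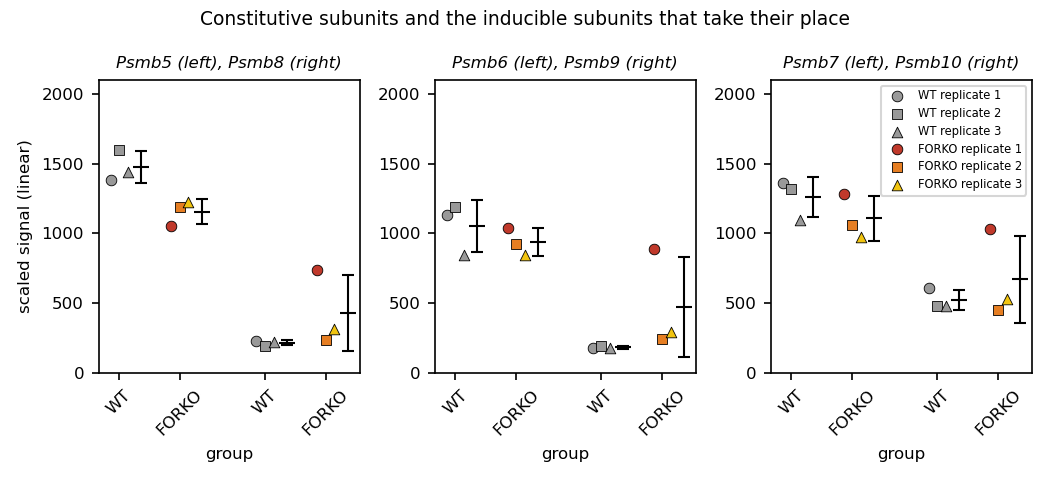
Scaled signal (linear axis from 0) of the catalytic subunits Psmb5, Psmb6 and Psmb7 and of the inducible subunits Psmb8, Psmb9 and Psmb10 on each array, with mean and SD bars (n = 3). The inducible subunits read 739, 885 and 1029 in FORKO replicate 1, above all other arrays, while Psmb5 is lower on all 3 FORKO arrays.

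The summed signals of the macrophage and lymphocyte lists were also highest in FORKO replicate 1. All 11 macrophage markers were measured, all changes were positive (median 0.51) and none passed limma's test, 4 at an unadjusted p of 0.05. Without FORKO replicate 1 the median was 0.05 and 4 of the 11 changes were negative, and with the replicate block 1 marker, Cd14, passed (limma adjusted p = 0.0298). The summed macrophage signal was 2799 to 3100 in WT, 2745 and 3570 in FORKO replicates 2 and 3, and 6704 in FORKO replicate 1. Of 10 lymphocyte markers, 4 passed the filter, and Cd3d, Cd3e, Cd2, Cd79a and Cd79b did not. With the block 1 of the 4, Ccl5, passed (limma adjusted p = 0.0421). The summed lymphocyte signal was 335 to 441 in WT, 406 and 683 in FORKO replicates 2 and 3, and 1847 in FORKO replicate 1, where Ptprc, found on all leukocytes, gave 1165, Il7r 311 and Ccl5 212. The T cell marker Cd3e read 1.2 in that sample and 2.1 to 11.1 in WT, and the B cell marker Cd79a read 5.4 and 1.1 to 18.4. Other lymphocyte markers were highest in that sample: Cd3g at 57.3 (13.4 to 26.7 in WT), Cd3d at 24.4 (1.1 to 6.0) and Cd2 at 53.2 (5.2 to 16.1). Cd79b was highest there too, at 16.9 (9.7 to 14.6 in WT). Of these only Cd3g passed the filter. The part of both lists in the signals of Psmb8, Psmb9 and Psmb10 was not tested, and in whole ovaries fewer or more cells of a type and less or more RNA per cell cannot be told apart.

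The ATPases of the cap form the ring that unfolds substrates. Of the 6 genes, 5 had a negative change and none had groups without overlap. Psmc1 read 1037, 1236 and 693 in WT and 832, 845 and 723 in FORKO samples (log2 change -0.27, 95% interval -0.73 to 0.20), the spread lying mostly among the WT arrays. Psmc6 read 583, 774 and 689 in WT and 514, 527 and 661 in FORKO samples (log2 change -0.26, 95% interval -0.65 to 0.12). Of the ATPases Psmc4 varied most within groups, 817 ± 226 in WT and 714 ± 263 in FORKO (log2 change -0.22). Its change was 0.02 without FORKO replicate 1, which read 490. Changes of Psmc3, Psmc2 and Psmc5 were -0.21, -0.05 and 0.04.

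The base of the cap further holds the scaffolds Psmd1 and Psmd2 and the ubiquitin receptor Psmd4. Psmd4 read 824, 1184 and 748 in WT and 633, 716 and 755 in FORKO samples (log2 change -0.36 ± 0.19, SE, 95% interval -0.79 to 0.06, limma adjusted p = 0.425). WT replicate 2 was high, and the lowest WT array lay within the FORKO range. Psmd1 read 558, 648 and 600 in WT and 487, 544 and 536 in FORKO samples (log2 change -0.20, limma adjusted p = 0.59), all FORKO arrays lying below WT. Psmd2 read 1156 ± 44 in WT and 1248 ± 219 in FORKO, with a change of 0.10.

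The lid surrounds the deubiquitinase Psmd14, and 7 of its 8 genes had a negative change. Psmd3 read 336, 325 and 410 in WT and 165, 342 and 350 in FORKO samples (log2 change -0.39 ± 0.28, SE, 95% interval -1.001 to 0.23, limma adjusted p = 0.586). A single array, FORKO replicate 1, set this change: without it the value was -0.04. Psmd12 read 376, 507 and 483 in WT and 304, 388 and 370 in FORKO samples (log2 change -0.35 ± 0.18, SE, 95% interval -0.75 to 0.05, limma adjusted p = 0.406), with the lowest value again in FORKO replicate 1 and a change of -0.25 without it. Psmd6 read 551 ± 57.5 in WT and 456 ± 58.3 in FORKO, with FORKO replicate 3 lowest. The enzyme itself, Psmd14, read 1462 ± 53.3 and 1391 ± 61.7 (95% interval -0.35 to 0.21) and had the smallest range over the 6 arrays of any member, 0.20 on the log2 scale. Changes of Psmd7, Psmd8, Psmd11 and Psmd13 were -0.15, -0.04, -0.11 and 0.07.

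Psmd5, Psmd9 and Psmd10 carry subunit names but act as chaperones in building the cap. Psmd10 read 184.3, 178.0 and 157.6 in WT and 157.5, 148.2 and 137.3 in FORKO samples (log2 change -0.22 ± 0.16, SE, 95% interval -0.59 to 0.15, limma adjusted p = 0.601), and all FORKO arrays were below WT, the nearest by less than 1 unit of signal. Psmd5 read 151, 208 and 218 in WT and 182, 210 and 217 in FORKO samples (log2 change 0.09), with WT replicate 1 lowest; without that array the change was -0.07. Psmd9, near the lower end of the members' signals, read 80 ± 2.43 in WT and 84.7 ± 12.7 in FORKO.

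Genes that have more than 1 probe set allowed a second reading. Of 38 further probe sets of the members, 25 passed the filter, from 17 genes; 16 had the same sign of change as the brightest probe set and 9 the opposite, and none passed limma's test (1 at an unadjusted p of 0.05). Their changes ran from -0.27 to 0.61. The second probe set of Psma6 gave -0.18 against -0.23, and that of Psmc2 -0.15 against -0.05. For Psmc4 the dimmer probe set gave 0.06 and for Psma7 0.08, opposite to the brighter ones.

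Other genes of the pathway gave no call either. Among 5 measured assembly factors of the proteasome none passed, and Psmg1, a chaperone of the alpha ring, read 294 ± 64.2 in WT and 216 ± 37.7 in FORKO (log2 change -0.42, limma adjusted p = 0.396). None of 4 activators and inhibitors passed. Psme1 read 598, 619 and 640 in WT and 954, 625 and 600 in FORKO samples, high in FORKO replicate 1 like the inducible subunits; Psme1 is a part of the interferon-inducible 11S activator. Of 6 further cap subunits and cap-bound enzymes, none passed; Uchl5 read 282, 302 and 246 in WT and 217, 202 and 186 in FORKO samples (log2 change -0.44 ± 0.16, SE, 95% interval -0.81 to -0.08, limma adjusted p = 0.249). The groups of this cap-bound deubiquitinase did not overlap, with all FORKO arrays below WT, as for 12.0% of all genes tested. None of 4 genes for transcription and processing passed: Nfe2l2 read 786, 709 and 747 in WT and 1300, 792 and 717 in FORKO samples, and Nfe2l1, the factor that raises proteasome genes when proteasomes are inhibited, averaged 557 ± 74.8 in WT against 633 ± 55.4 in FORKO. None of 8 measured genes for ubiquitin activation and shuttling passed, and their changes ran from -0.08 to 0.15, the largest being that of Ufd1. In these 5 lists 1 gene, Uchl5, had an unadjusted limma p under 0.05, where 16.8% of all genes tested did. Besides Uchl5, Sem1 and Akirin2 in these lists had groups without overlap, both lower in FORKO.

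**Figure D5:**
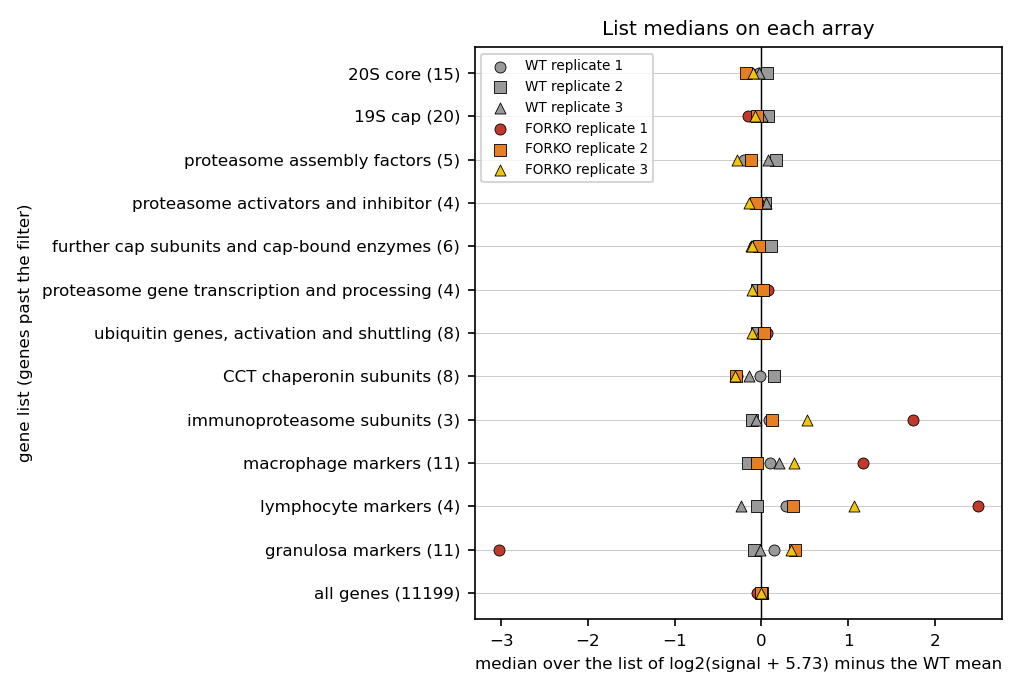
Median over each gene list of log2(signal + 5.73) minus the WT mean of the gene, on each of the 6 arrays; the number of genes past the filter is given beside each list. The core and cap medians lie between -0.18 and 0.08 on all arrays under this scaling, while among the lists drawn FORKO replicate 1 lies far from the other arrays in the inducible subunits (1.75), macrophage (1.17), lymphocyte (2.50) and granulosa (-3.03) lists.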

How the data were processed

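The deposited values are array intensities, MAS5 signals with 1 linear value per probe set, as the submitters' processing notes name them (deposited intensities); what the signals were scaled to and which were called present is not given in the sources used here. Groups came from the sample titles and the genotype in the labels. The free text of the FORKO samples mentions wild-type mice, and the labels leave this mismatch unexplained. Arrays were scaled to 1 mean after trimming 2% at each end, and log2(signal + 5.73) was taken, 5.73 being the pooled 25th percentile. The 64 control probe sets and those with mean signals under 20.4 were left out, which left 22506 for limma 3.58.1 (R 4.3.3; intensity trend, two-sided tests), with Benjamini-Hochberg adjustment at 0.05; 372 passed (1.65%). Intervals are limma's 95% intervals. The number of arrays limits the precision. The script was tested on simulated data.

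Symbols came from the platform annotation (34945 probe sets with 1 symbol, 932 with several, 9160 without one listed), and a probe set with several named no gene. Named genes were, in each role group, those that passed or the 2 largest changes, the catalytic and inducible subunits, and the largest change in each further pathway list; other members are given because all are accounted for. The members and lists were chosen with earlier results of these data known. Deviations of same-numbered arrays correlated at 0.195, 0.134 and 0.358, all above 0.1, so that a design with the replicate number as a block was also run. The labels do not state such pairs. The design without a block is the main one, and values not named as blocked or paired come from it. Blocked values are given beside counts that they change. Alternatives covered scaling (quantile, as deposited, same median, bacterial spikes), pseudocounts of 1 and 16, the dim filter, the variance model, probe set choice, the block and each array left out. Figures were drawn with matplotlib 3.10.9.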

Additional observations from a re-analysis of the deposited data

How the results depend on the processing

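The count of 0 for core and cap members held under every alternative of processing that was run; without single arrays it was 0 to 1 for the core, where Psma8 passed without FORKO replicate 1, and 0 for the cap. The core and cap medians were -0.24 and -0.25 with arrays scaled to the same median, 0.0093 and -0.0060 with spike scaling, and -0.085 and -0.089 with a gene's probe sets averaged. Leaving out 1 array gave -0.16 to -0.12 for the core and -0.19 to -0.071 for the cap. Over all probe sets the count of 372 became 594 with spike scaling, 221 without the dim filter, 191 with a stricter one (mean of 90.4), 691 with the replicate block, and 62 to 864 without single arrays. The share of higher calls, 64.0%, was 50.4% with the same median and 84.2% with spike scaling. The change of Fshr was -3.69 with a pseudocount of 1, -2.17 with one of 16, since its FORKO signals are dim, and -3.17 to -2.46 without single arrays; its adjusted p passed the threshold no longer without WT replicate 1 (0.0526) or WT replicate 3 (0.0598). The differences between inducible and constitutive subunits kept their sign in the alternatives run, at 1.02 to 1.51 (Psmb8, without FORKO replicate 1 0.61), 1.19 to 1.60 (Psmb9, without that array 0.77) and 0.37 to 0.67 (Psmb10, without it 0.22) when single arrays were left out; pairing the replicates gave an exact permutation p of 0.25 for each, the smallest that 3 pairs allow. Of 395 combinations of a named gene and an alternative, 390 kept direction and side of the threshold. Reversed were Psmb6 with spike scaling (0.012), Psmd5 without WT replicate 1 (range without single arrays -0.073 to 0.19), and Psmb10 (-0.083 to 0.50) and Psme1 (-0.016 to 0.32) without FORKO replicate 1, and Psma8 passed without it (0.96); the causes were not tested. The replicate block changed no call of a named gene. MAS5 signals near 0, such as those of Psmb11, do not tell a low level from background.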

Other observations

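The 8 subunits of the CCT chaperonin, the ring complex that folds actin and tubulin, were measured as another complex found in all cells, from a list that was chosen with earlier results of these data known. None passed limma's test, and 5 of 8 had an unadjusted limma p under 0.05, where 16.8% of all genes tested did. For 7 of 8 the groups did not overlap and FORKO was lower, as for 12.0% of all genes tested. Cct2 read 2213, 2656 and 1861 in WT and 1573, 1615 and 1785 in FORKO samples (log2 change -0.42 ± 0.15, SE, 95% interval -0.77 to -0.08, limma adjusted p = 0.243). Tcp1 read 1687, 1972 and 1784 in WT and 1290, 1474 and 1453 in FORKO samples (log2 change -0.37 ± 0.13, SE, 95% interval -0.66 to -0.07, limma adjusted p = 0.237). Cct6a read 2481, 2656 and 1960 in WT and 1892, 1823 and 1600 in FORKO samples (log2 change -0.41 ± 0.15, SE, 95% interval -0.75 to -0.07, limma adjusted p = 0.249). The median change of the list was -0.30, and it was -0.28 without FORKO replicate 1. Against the WT mean, the list's median stood at -0.28, -0.29 and -0.31 in FORKO replicates 1, 2 and 3. These values rest on the main scaling. With spike scaling the median of all genes moved from -0.02 to 0.14, and the list was not examined under it. The subunit with overlapping arrays was Cct8, with a change of 0.08. Summed CCT signals were 16318 to 19728 in WT and 14390 to 14816 in FORKO.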
